A study of Mus musculus with 2 samples.

Results

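Cd8a and Cd8b1, the neighbouring genes that encode the alpha and beta chains of the CD8 co-receptor, were followed together with the chromatin around them in mouse thymus. The members were the 2 genes as GENCODE annotates them on mm10 (GRCm38), and every peak, footprint and run of cut bases from 50 kb before Cd8b1 to 50 kb after Cd8a, taken by position alone. That stretch, chr6:71272788-71429173, spans 156 kb and is called the Cd8 region here. It held 42 of the 59484 peaks listed for mouse 1 and 103 of the 72913 listed for mouse 2, and the pair is 2 of 21755 protein-coding genes on the autosomes and X.

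The thymus came from 2 female B6CASTF1/J mice aged 36 days, first-generation hybrids of C57BL/6J and CAST/EiJ, and its open chromatin was assayed by DNase-seq. The assay maps the stretches of nuclear DNA that the nuclease DNase I can cut. There was 1 library per mouse and 1 group of mice, with no treatment and no second genotype, so every comparison below sets positions of the genome or the 2 mice side by side and none has a test. Mouse 1 and mouse 2 are biological replicates 1 and 2 of the labels, which number them as separate females. An animal and its library cannot be told apart in this design. The tissue was not sorted, so accessibility in more cells and greater accessibility per cell cannot be told apart either. All 7 thymocyte markers examined (Cd4, Cd3e, Cd3d, Cd3g, Lck, Tcf7 and Bcl11b) had a promoter peak in both mice, against 56.6% of all protein-coding genes. Of 9 markers of B, myeloid, epithelial, mesenchymal and endothelial cells, 3 (Epcam, Pdgfra and Pecam1) had one in both mice. That of the endothelial gene Pecam1 had a signal of 5.44 in mouse 1 and 3.12 in mouse 2, above the 2.44 and 2.70 of Cd4. Another 4, among them the B-cell gene Cd79a, had a promoter peak in neither mouse. The myeloid genes Lyz2 and Itgax had a weak one (0.664 and 0.632) in mouse 1 alone.

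CD8 sits on T cells that recognise peptides on class I MHC and become cytotoxic cells, where it binds MHC and brings the kinase Lck to the T-cell receptor. On most conventional T cells it is a pair of one alpha and one beta chain, and the alpha chain can also pair with itself. Thymocytes switch on CD8 together with CD4 at the double-positive stage, and then keep one co-receptor. Several enhancers scattered within and between the Cd8 genes control this, each active at certain stages, and RUNX, E and other T-lineage proteins act on the locus. The published positions of those enhancers are not in the files used here, so sites are named below by their distance from a start site.

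Both genes lie on the plus strand. Cd8b1 (ENSMUSG00000053044.8) runs over 14.7 kb from chr6:71322788-71337494, and Cd8a (ENSMUSG00000053977.13) over 5.75 kb from chr6:71373427-71379173, with 35.9 kb between them. The start of Cd8b1 is 555 bp from that of Smyd1, a muscle methyltransferase gene on the other strand, so both starts share 1 promoter peak. The 11 annotated genes that overlap the region are these 3, the protein-coding genes Krcc1 and Rmnd5a at its ends, the lincRNAs Gm1070, Gm44110, Gm44174 and Gm44175, the pseudogene Gm44111 and the unclassified transcript Gm44321. Of the neighbours, Krcc1 had a strongest promoter peak of 8.72 (mouse 1) and 23.6 (mouse 2), and Rmnd5a one of 22.5 and 41.5, all of them outside the region. Gm44321 had no peak in either mouse.

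Stretches at both promoters and at 4 distal sites, 2 of them chosen as the closest to Cd8a, are shown from the GRCm38 reference, plus strand, with capitals for bases inside a footprint in both mice. A footprint is a short run within accessible DNA that the authors listed as protected from cutting. The first lines are the 250 bases before each start, chr6:71322538-71322787 for Cd8b1 and chr6:71373177-71373426 for Cd8a. The next are 200 bases at the centre of 4 distal sites: chr6:71369511-71369710 (3.82 kb before the Cd8a start), chr6:71371201-71371400 (2.13 kb before it), chr6:71341281-71341480 (18.6 kb after the Cd8b1 start, between the genes) and chr6:71302441-71302640 (20.2 kb before the Cd8b1 start).
Cd8b1 promoter: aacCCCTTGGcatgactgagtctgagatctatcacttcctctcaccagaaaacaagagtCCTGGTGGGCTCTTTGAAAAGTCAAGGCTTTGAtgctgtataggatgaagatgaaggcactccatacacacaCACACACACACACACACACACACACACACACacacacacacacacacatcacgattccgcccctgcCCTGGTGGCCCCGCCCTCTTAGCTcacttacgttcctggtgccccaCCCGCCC
Cd8a promoter: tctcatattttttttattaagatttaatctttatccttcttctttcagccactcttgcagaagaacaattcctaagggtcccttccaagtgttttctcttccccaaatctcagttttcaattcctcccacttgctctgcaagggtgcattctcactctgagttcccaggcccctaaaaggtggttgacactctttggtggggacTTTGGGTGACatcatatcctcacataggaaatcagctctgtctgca
3.82 kb before Cd8a: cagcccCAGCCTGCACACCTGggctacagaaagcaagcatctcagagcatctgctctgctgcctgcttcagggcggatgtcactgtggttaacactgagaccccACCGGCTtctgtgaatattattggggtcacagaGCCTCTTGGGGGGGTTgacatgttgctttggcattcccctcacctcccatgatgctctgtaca
2.13 kb before Cd8a: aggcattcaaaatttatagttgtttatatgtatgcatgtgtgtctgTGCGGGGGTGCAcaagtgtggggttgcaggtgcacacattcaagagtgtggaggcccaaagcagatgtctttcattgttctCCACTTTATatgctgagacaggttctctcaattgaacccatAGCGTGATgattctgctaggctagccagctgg
18.6 kb after the Cd8b1 start: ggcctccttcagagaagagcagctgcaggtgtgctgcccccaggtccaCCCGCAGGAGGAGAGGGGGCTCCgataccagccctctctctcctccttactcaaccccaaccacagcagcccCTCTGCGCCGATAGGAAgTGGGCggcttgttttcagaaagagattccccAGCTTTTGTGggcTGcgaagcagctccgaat
20.2 kb before Cd8b1: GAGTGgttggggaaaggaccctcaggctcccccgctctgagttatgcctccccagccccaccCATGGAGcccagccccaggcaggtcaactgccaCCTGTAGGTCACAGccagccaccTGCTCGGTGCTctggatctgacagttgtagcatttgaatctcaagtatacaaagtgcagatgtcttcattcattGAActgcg
In the Cd8b1 window, 102 of the 250 bases were in footprints of both mice. This window lies inside the promoter peak of mouse 1, while that of mouse 2 (chr6:71322681-71322860) starts within it. The Cd8a window holds 10 such bases, but most of the Cd8a promoter peak lies past the start and outside it, so the windows cannot be compared. The capitals of the Cd8b1 promoter cover both matches to CTTTGA, the core that TCF and LEF proteins bind, and 2 of 3 matches to GGGCGG, bound by SP and KLF proteins, which stand there as their complement. Both CTTTGA matches lie before the start of the mouse 2 peak. The capitals also cover part of a run of CA repeats, so the 102 bases include repeat sequence. All letters are those of the reference, and the CAST/EiJ allele of these hybrids was not examined. At the site 3.82 kb before Cd8a the capitals cover a CAGGTG, an E-box bound by E proteins, read there on the minus strand. At the site 20.2 kb before Cd8b1 they cover all of 1 AGGTCA, letters that ROR proteins bind, and none of another. Of the CAGGTG matches there, 1 was covered over 4 bases and 1 over 2. Some other matches in the distal windows had no base in footprints of both mice. Among these were the RUNX letters TGTGGT 3.82 kb before Cd8a and 18.6 kb after the Cd8b1 start. The E-boxes at the latter site and 2.13 kb before Cd8a had none either. At the site 18.6 kb after the Cd8b1 start, AGGGGGC, a core of the CTCF motif, lay wholly in footprints of both mice. AGGAAG, bound by ETS proteins, and GGGCGG lay partly in them there, over 5 and 4 bases.

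At the promoters, both Cd8 genes had 1 strong peak in each mouse, and these were the 2 strongest shared sites of the region by mean signal. Within 1000 bp of each start, mouse 2 had 3 peaks and mouse 1 had 1, and the strongest is described. The peak signal given below is the authors' own value per peak, a height whose scale is not named and which was treated here as comparable between the libraries. At the Cd8a promoter (chr6:71373341-71373580) it was 12.7 in mouse 1 and 20.7 in mouse 2, a mean of 16.7 ± 5.66 (SD, n = 2). At the Cd8b1 promoter (chr6:71322481-71322860) it was 12.1 and 21.1, a mean of 16.6 ± 6.30 (SD, n = 2). The promoters thus had nearly the same signal within each mouse, and both were higher in mouse 2. In both mice 56.6% of all protein-coding genes had such a peak, and among genes with one the median signal was 4.94 in mouse 1 and 10.4 in mouse 2. Cd8a ranked 1718 of 12386 such genes in mouse 1 and 3382 of 13742 in mouse 2, and Cd8b1 ranked 1890 and 3284. Both promoters therefore stood above the median in each mouse, and at a lower rank in mouse 2. The log2 ratio of mouse 2 over mouse 1 was 0.71 at Cd8a and 0.79 at Cd8b1, against a median of 1.27 over the 12303 genes with a promoter peak in both mice.

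Of the distal sites, the one 3.82 kb before Cd8a (chr6:71369441-71369760), in an intron of Gm44174, had the highest signal of the region in mouse 1, above both promoters. There mouse 1 had 17.3 and mouse 2 had 15.0, a mean of 16.1 ± 1.65 (SD, n = 2). Its neighbour 2.13 kb before Cd8a (chr6:71371161-71371440) had 8.09 and 6.53. On the deposited scale both of these sites close to Cd8a were thus lower in mouse 2, while the promoter beside them was higher. Set against the median log2 ratio of genome pairs of like GC content, the promoter was lower too. It stood at -0.24 from that median, and the 2 sites at -0.51 and -0.38, so the opposite directions depend on the scale. Between the genes, the site 18.6 kb after the Cd8b1 start (chr6:71341261-71341500) had 11.7 and 18.5. The site 31.1 kb after that start (chr6:71353761-71354020), near the start of the lincRNA Gm44174, had 9.18 and 10.4. The site 15.0 kb after it (chr6:71337741-71338020), just past the end of Cd8b1, had 5.16 and 4.95. Of these 3, then, only the first differed by over 1.5-fold between the mice.

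Upstream of Cd8b1, 2 strong sites lay within Smyd1. The site 20.2 kb before the start (chr6:71302421-71302680), which also overlaps an exon of the lincRNA Gm1070, had 9.05 in mouse 1 and 15.9 in mouse 2. The site 15.1 kb before it (chr6:71307601-71307840) had 7.79 and 7.05. Inside Cd8b1 the strongest site, over an exon 11.3 kb into the gene (chr6:71333941-71334160), had 4.62 and 5.51. These complete the 10 strongest shared sites. Over the 46886 pairs of shared peaks in the genome, the Cd8a promoter ranked 2535 by mean signal and the last of the 10 ranked 11226.

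**Figure D1:**
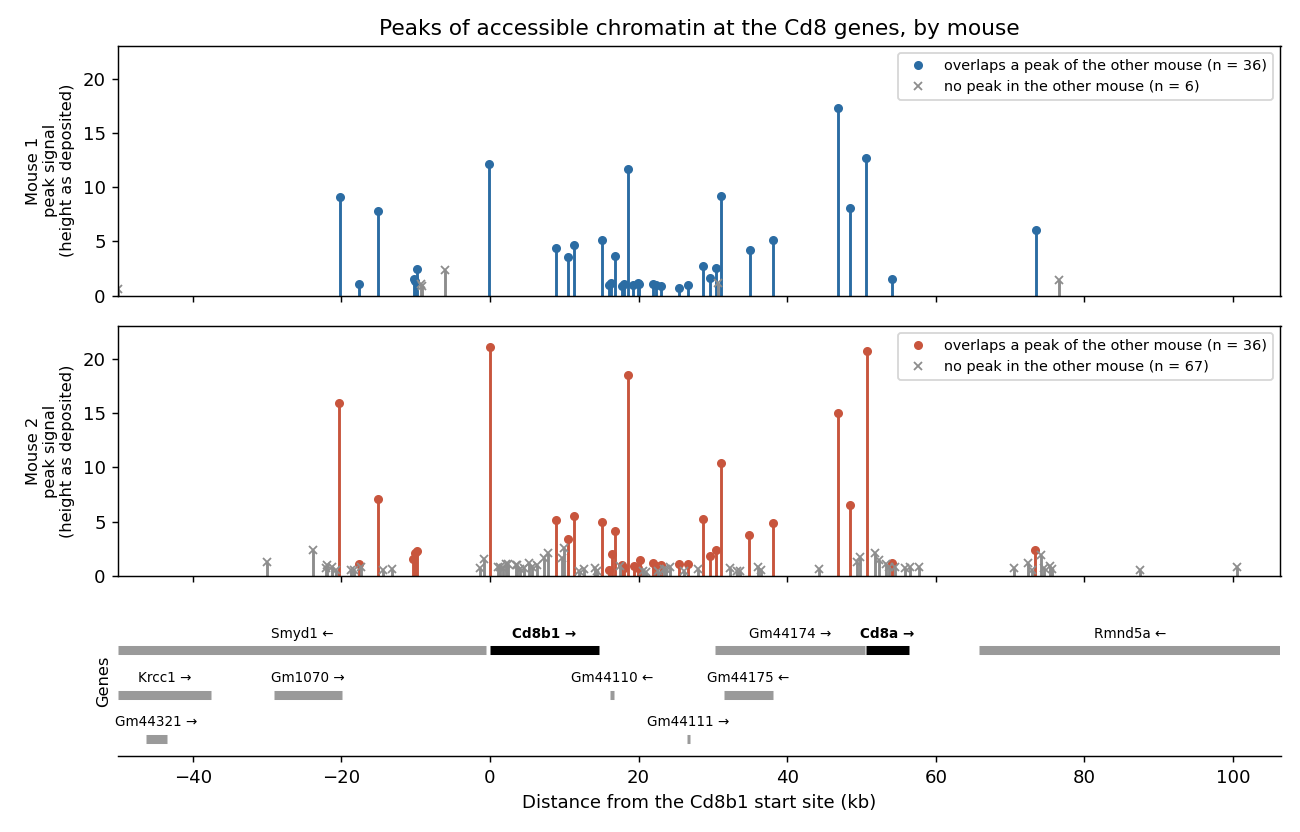
Each line is a peak of the Cd8 region, placed by its distance in kb from the Cd8b1 start, with its deposited height on the vertical axis for mouse 1 (top) and mouse 2 (middle) and the annotated genes below. The tall peaks stand at the same places in both mice. In mouse 2, 67 peaks, all with a signal of 2.57 or less, overlap no peak of the list used for mouse 1 (grey crosses). A longer list of mouse 1 peaks overlaps 16 of these 67.

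On the deposited scale, the shared sites of the Cd8 region differed less in height between the mice than shared peaks of the genome did. The region held 34 pairs in which each peak was the other's best overlap, and 19 of them (55.9%) were higher in mouse 2, against 81.5% of all 46886 pairs. Their median log2 ratio of mouse 2 over mouse 1 was 0.14, with a 95% binomial interval of the median from -0.09 to 0.23 that covers only the spread among these sites. The median over all pairs was 0.75. With each signal divided by its library's median over all pairs, the median of the region turned to -0.54, so its direction depends on the scaling. In the genome this ratio rose with base composition, from a median of 0.07 in the lowest to 1.42 in the highest of 5 equal groups of pairs by GC content. Of the 34 sites, 24 had a ratio below the median of their own GC group. The part of GC content in the difference from the genome was not tested beyond this grouping. Per site the ratio ran from -1.35 to 0.93, and 24 of 34 were within 0.5 of zero. The lowest was a peak over an internal start of Rmnd5a (chr6:71396101-71396360), with a signal of 6.08 in mouse 1 and 2.38 in mouse 2.

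**Figure D2:**
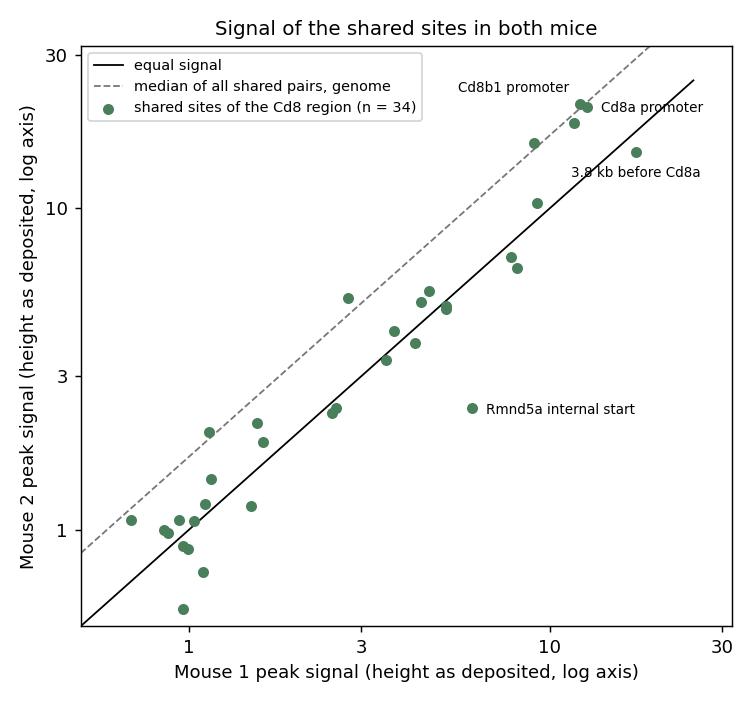
Each point is 1 of the 34 shared sites of the Cd8 region, with its signal in mouse 1 and in mouse 2 on log axes. The solid line marks equal signal and the dashed line the median ratio over all shared pairs of the genome; most points lie near the solid line, the promoters of Cd8a and Cd8b1 lie near the dashed one, and the Rmnd5a site lies well below both.

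The mice also differed in the number of peaks. Mouse 1 had 42 peaks in the region and mouse 2 had 103, a mean of 72.5 ± 43.1 (SD, n = 2). By the centre of the peak, the body of Cd8b1 held 3 in mouse 1 and 23 in mouse 2. The body of Cd8a held 2 and 8, the stretch between the genes 24 and 40, the 50 kb before Cd8b1 11 and 20, and the 50 kb after Cd8a 2 and 12. Every segment thus had more peaks in mouse 2, most unequally within Cd8b1 and after Cd8a. Some entries overlap, and merging those that overlap or touch left 38 and 96 in the region and 3 and 19 in the body of Cd8b1. With only as many of mouse 2's strongest peaks as mouse 1 has in all, the region still held 83 in mouse 2. Among peaks at or above the median signal of their own library, the counts were 25 and 32, so most of the excess consisted of weak peaks.

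Of the mouse 1 peaks 36 of 42 (85.7%, exact binomial 95% interval 71.5 to 94.6) overlapped a peak of mouse 2, near the 80.8% of all mouse 1 peaks. Of the mouse 2 peaks 36 of 103 (35.0%, 25.8 to 45.0) overlapped a peak of mouse 1, against 66.1% of all mouse 2 peaks. The intervals cover counting error only, and they treat overlapping entries as separate peaks. The 67 mouse 2 peaks without a partner had a median signal of 0.796 and a highest of 2.57, and 47 of them touched no base of significant cutting in mouse 1. The lowest signal that mouse 1 listed in the region was 0.619, and 48 of the 67 were above it on the deposited scale. Shared peaks of the genome were higher in mouse 2 on that scale (median log2 ratio 0.75). Being above 0.619 therefore does not mean that such a peak would have been listed in mouse 1. The longer list of mouse 1 went down to 0.453 in the region and overlapped 16 of the 67. The strongest of the 67 lay in an intron of Cd8b1 (chr6:71332661-71332840, 2.57), where the longer list of mouse 1 held a peak of 2.25. The next lay 5136 bp from the start of Gm1070 (chr6:71298901-71299060, 2.34) and just inside Cd8a (chr6:71374241-71374840, 2.15). In mouse 1 only 6 peaks had no partner, the strongest in Smyd1 (chr6:71316601-71316820, 2.35), at an internal start of Rmnd5a (chr6:71399341-71399421, 1.48) and near the start of Gm44174 (chr6:71353461-71353570, 1.15). Neither of the first pair touched a base of significant cutting in mouse 2.

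Significant cutting showed the same contrast base by base. The authors listed the bases whose local cut rate passed an FDR below 0.05, and these made up 1.32% of the genome in mouse 1 and 1.52% in mouse 2. In the Cd8 region they made up 12.8% and 31.9%. Over the body of Cd8b1 the share was 7.68% in mouse 1 and 82.6% in mouse 2, and over Cd8a it was 12.1% and 79.5%. Both gene bodies thus passed this limit along most of their length in mouse 2 and at a few places in mouse 1. A base that missed the limit may still have been cut by DNase I. Throughout, a cut base is short for one that passed it. The share between the genes was 31.0% and 53.3%, before Cd8b1 12.1% and 17.2%, and after Cd8a 2.02% and 10.9%. Exons and introns shared in it: for Cd8b1 the exons went from 10.05% in mouse 1 to 95.5% in mouse 2 and the introns from 7.41% to 81.1%, and for Cd8a from 14.8% to 73.2% and from 7.49% to 90.3%. At an FDR below 0.001 the shares were 5.09% and 73.4% for Cd8b1 and 5.81% and 70.0% for Cd8a.

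**Figure D3:**
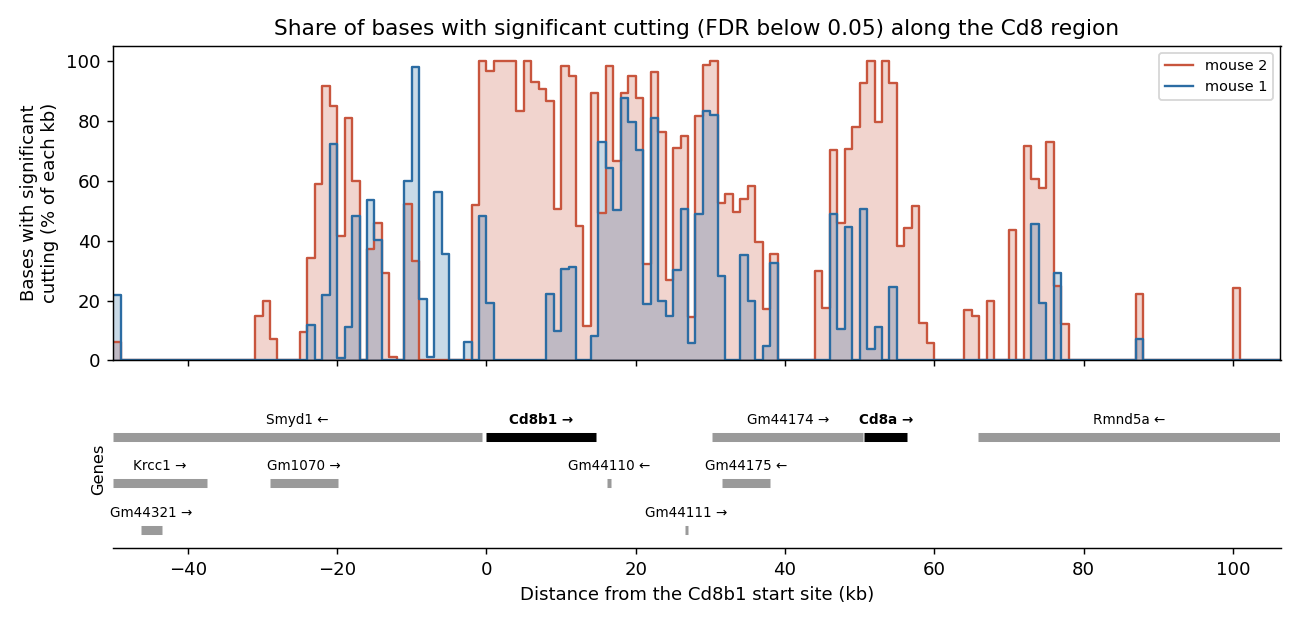
The lines give the share of bases with significant cutting in each kb of the region for both mice, by distance in kb from the Cd8b1 start, with the genes below. In mouse 2 the share is high over most of Cd8b1 and of Cd8a and lower in single bins of each; 50 of 157 bins are cut over at least 50% of their bases in mouse 2 and 16 in mouse 1, and in 11 bins, most of them before Cd8b1, mouse 1 is higher and mouse 2 lower.

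The longest uninterrupted runs of cutting in the region showed where this was. In mouse 2 the longest covered 3.48 kb within Cd8b1 (chr6:71323595-71327070), ranked 126 of 187639 runs in the genome, and held no cut base in mouse 1. The others in mouse 2 covered 2.45 kb at the start of Gm44174, 2.23 kb over the Cd8a promoter and 5′ part, 2.10 kb within Cd8a and 1.84 kb over the Cd8b1 and Smyd1 starts. In mouse 1 the longest, 2.75 kb, began outside the region and covered the Krcc1 start. The next 3 were 1.22 kb at the start of Gm44174, 1.09 kb between the genes and 0.991 kb in Smyd1, and mouse 2 was cut over 85.9% or more of each of these 3. The last of the 5, 0.776 kb in Smyd1, held no cut base in mouse 2. None of the 5 longest runs of mouse 1 lay within Cd8b1 or Cd8a.

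Few other genes had as large an excess in mouse 2 in the share of the body that was cut. Genes cut more in mouse 1 do not count in these ranks, whatever the size of their difference. Over the 21755 protein-coding genes the median difference, mouse 2 minus mouse 1, was 0 percentage points. Cd8b1 differed by 74.9 points and Cd8a by 67.4, which ranked 13 and 24 from the largest excess in mouse 2. Among the 17694 genes of 5 kb or longer, a limit chosen after the values were seen, they ranked 2 and 9. The bodies were 48.0% and 48.6% GC. In the GC group (1 of 5 equal groups of genes) that holds both (4351 genes), the median difference was 0.07 points. There 3 genes, Cd8a and Cd8b1 among them, had an excess in mouse 2 at or above that of Cd8a. Summed promoter signal of the thymocyte markers was 58.7 in mouse 1 and 83.3 in mouse 2, and of the 9 markers of other cells 8.76 and 9.33. The sum over the 9 markers pools cell types that moved in opposite directions. It fell for the myeloid or dendritic markers, and rose for the epithelial and for the mesenchymal or endothelial ones. Among all protein-coding genes with a promoter peak, the median signal was 4.94 and 10.4. These medians are over different genes in each mouse (12386 and 13742), so the marker sums cannot be set against them. The part of cell composition in the difference of the gene bodies was not tested.

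Genes that work with CD8 differed less between the mice, by at most 41.1 points of the gene body. Of 13 receptor and co-receptor genes, 13 had a promoter peak in both mice, against 56.6% of all protein-coding genes. Their bodies had a median share of cut bases of 9.25% in mouse 1 and 22.3% in mouse 2. In mouse 2 the share was higher for 11 of 13, against 46.0% of all protein-coding genes. That 46.0% is over a base that includes genes without a cut base in either mouse, so the bases are not alike. Cd3d, a chain of the CD3 complex, was the closest to the Cd8 genes, with 36.0% and 77.0%. Cd4, the co-receptor of class II restricted cells, had 9.25% and 16.0%, with promoter signals of 2.44 and 2.70. By peaks per 10 kb over the gene body and 10 kb on either side, the highest of this list in the mean of both mice were the adhesion gene Cd2 (7.18 and 7.49) and Cd3e of the CD3 complex (4.21 and 7.77), and the lowest were Themis (0.255 and 0.297), a signalling gene of thymocyte selection, and the phosphatase gene Ptprc (0.376 in each). On that scale Cd8b1 had 6.63 and 13.5 and Cd8a 1.55 and 5.83.

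Of 14 genes for factors known to act on Cd8, 14 had a promoter peak in both mice, against 56.6% of all protein-coding genes. A larger share of cut body in mouse 2 was seen for 8 of the 14, against 46.0% of all protein-coding genes, with the same limit on that base. Tcf7, which encodes TCF1, was cut over 58.7% of its body in mouse 1 and 97.2% in mouse 2, and had the highest peak density of the list (9.48 and 13.8). Patz1, which encodes MAZR, came next in the mean of both mice (3.73 and 6.71 peaks per 10 kb), though Zbtb7b was above it in mouse 1 (5.39). Zbtb7b, which encodes ThPOK, the factor that represses Cd8 in CD4-lineage cells, went the other way: 53.9% of its body was cut in mouse 1 and 18.1% in mouse 2, with 20 and 8 peaks in its window. Its promoter signal was 2.16 and 4.88. It was the only one of the 36 list genes whose body share was over 10 points lower in mouse 2. The lowest densities were those of the E-protein gene Tcf12 (0.311 and 0.207) and of Cbfb, the partner of RUNX proteins (0.594 and 0.446). Among the markers of other cells, the body share differed by -7.18 to 4.93 points. Their densities were highest at the B-cell gene Cd79a (3.63 and 2.82) and the dendritic-cell gene Xcr1 (1.68 and 1.35), both without a promoter peak, and lowest at the keratin gene Krt5 (no peak) and the integrin gene Itgax (0.243 and 0).

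**Figure D4:**
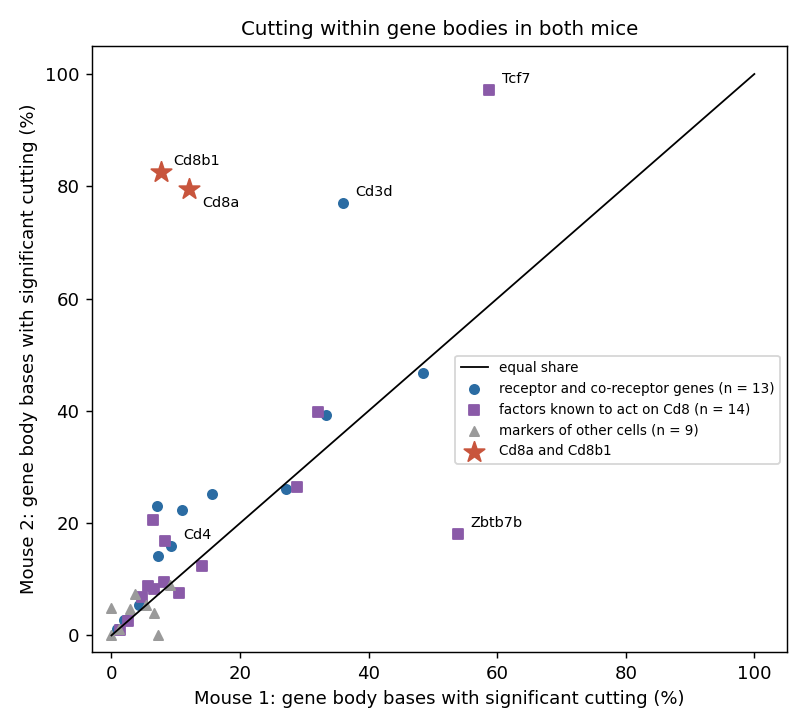
Each point is a gene, with the share of its body covered by significant cutting in mouse 1 on the horizontal and in mouse 2 on the vertical axis; the line marks equal shares. Cd8b1 and Cd8a lie at the upper left, farther from the line than any of the 36 list genes, and Zbtb7b lies far below it.

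In the density of peaks around the gene, the 3 genes most like Cd8a were Ramp1, Esrra and Cdkn2aipnl, with 1.53 to 1.68 peaks per 10 kb in mouse 1 and 5.51 to 6.07 in mouse 2. The 3 most like Cd8b1 were Gm525, Midn and Psmb8, with 6.32 to 7.64 and 10.95 to 13.3. Likeness was the distance in log2(peaks per 10 kb + 0.1) over the 2 mice, 0.02 to 0.12 for the first 3 and 0.06 to 0.31 for the second. Body cutting differed among them, and each was higher in mouse 2. Since the genes were chosen for a peak density that was higher in mouse 2, that direction is no separate result. The share cut was 12.2% and 37.2% at Ramp1, 8.97% and 42.3% at Esrra and 12.1% and 13.4% at Cdkn2aipnl. At Gm525 it was 19.8% and 56.1%, at Midn 47.4% and 73.1% and at Psmb8 57.5% and 67.6%.

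As a whole the Cd8 region was among the stretches of the genome densest in peaks. Of 16241 tiles of the same length, 24 held as many peaks or more in mouse 1 and 1 in mouse 2, with a median of 1 peak per tile in each. Of the 392 tiles with 20 or more peaks in mouse 1, 3 had as high a ratio of mouse 2 to mouse 1 as its 2.45, with a median of 1.14. Around 3 other T-lineage loci, with the same 50 kb margins, the counts were 43 and 44 for Cd4, 30 and 47 for the Cd3g, Cd3d and Cd3e cluster, and 75 and 107 for Tcf7. These stretches were shorter than the Cd8 region, at 124, 140 and 131 kb. Per 10 kb, Tcf7 (5.74 and 8.19) was denser than the Cd8 region (2.69 and 6.59) in both mice. Cd4 (3.48 and 3.56) was denser in mouse 1 alone, and the Cd3 cluster (2.14 and 3.36) in neither. Of the mouse 2 peaks at Cd4, the Cd3 cluster and Tcf7, 77.3%, 48.9% and 60.7% overlapped one of mouse 1, each above the 35.0% of the Cd8 region. The ratio of cut bases was 1.10, 1.28 and 1.46 at these loci and 2.49 at the Cd8 region.

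Footprints followed the peaks. Mouse 1 had 200 in the region and mouse 2 had 385, each with a median length of 9 bp. Within Cd8b1 the counts were 9 and 83, within Cd8a 8 and 32, and between the genes 123 and 151. Of the mouse 1 footprints 47.0% overlapped one of mouse 2, against 55.6% over all its footprints, and of the mouse 2 footprints 23.1% overlapped one of mouse 1, against 45.2%. Of the few that mouse 1 had within Cd8b1, 8 of 9 were also found in mouse 2. The same start and end in both mice was seen for 4 footprints, which is 2% of those of mouse 1 and 1.04% of those of mouse 2, against 1.98% and 1.68% over the genome. They are printed in capitals, with 8 flanking bases on each side, because they are the stretches bounded alike in both animals: a 25 bp footprint 47 bp from the start of Gm44110 (chr6:71339582-71339606), a 24 bp one 30 bp before the Cd8b1 start (chr6:71322735-71322758), a 19 bp one in Gm44174 (chr6:71353230-71353248) and a 13 bp one in Smyd1 (chr6:71307804-71307816).
Gm44110 start: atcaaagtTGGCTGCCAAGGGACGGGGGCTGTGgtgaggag
Cd8b1 start: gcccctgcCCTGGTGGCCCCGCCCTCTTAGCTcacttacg
Gm44174: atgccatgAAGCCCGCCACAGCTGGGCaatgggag
Smyd1 intron: aagaccgaCGGCAAAGCAGAGatgaaggc
With the flanking bases included, the first overlaps a match to TGTGGT, the RUNX letters. The second overlaps a GGGCGG, the third a CAGCTG, and the last no motif searched.

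Motif letters were counted on both strands in the 200 bases at the centre of each of the 34 shared sites and of all 46886 shared pairs. The E-boxes stood in more of the sites than any other motif searched. CAGGTG stood in 16 of 34 sites (47.1%, against 25.6% of all), and CAGCTG, which reads the same on both strands, in 12 of 34 (35.3%, against 18.8%). The RUNX letters TGTGGT stood in 8 of 34 (23.5%, against 17.5%) and the AGGTCA that ROR proteins bind in 7 of 34 (20.6%, against 9.35%). Less common than in the genome were GGGCGG of SP and KLF proteins (4 of 34, 11.8%, against 29.9%) and AGGAAG of ETS proteins (5 of 34, 14.7%, against 35.2%). GGGAGG of MAZR, a repressor of Cd8 in early thymocytes, stood in 8 of 34 (23.5%, against 36.2%). The sites of the region had a median GC content of 51.1% against 55.7% over all pairs, and its part in these shares was not tested. Shares for TCF and LEF (CTTTGA, 14.7% against 12.1%), Ikaros (TGGGAA, 17.6% against 15.6%) and MYB (CAACTG, 14.7% against 9.56%) lay closer to the genome. So did the shares for AGATAA of the GATA proteins (2.94% against 5.07%) and GGAAAA of the NFAT proteins (8.82% against 11.6%), while the TTCNNNGAA of STAT proteins stood in 11.8% against 4.58%. For the CTCF cores the shares were 2.94% against 9.38% for AGGTGGC, which can overlap CAGGTG by its first letters, and 5.88% against 12.2% for AGGGGGC. A match is a run of letters and not a bound site. By its centre, CAGGTG lay in footprints of the region 5 times in mouse 1 and 9 times in mouse 2, with 2.21 and 2.03 matches per kb of footprint against 1.46 and 0.836 per kb of other cut bases. Over the genome these rates were 1.34 against 1.18 in mouse 1 and 1.36 against 1.28 in mouse 2. The ratio of the rates was higher for GGGCGG, at 15.7 and 5.12 in the region (6.17 and 5.47 in the genome) from 4 matches in footprints of each mouse. For GGGAGG it was 3.36 and 1.59 (2.34 and 1.99 in the genome) from 9 matches in each.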

How the data were processed

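The thymus of 2 mice, 1 DNase-seq library each, was analysed as 1 group, with replicate numbers from the labels. The build is mm10 (GRCm38), as the labels state. Per library, the authors deposited a shorter and a longer peak list with a signal per peak, runs of bases whose local cut rate passed an FDR (a q-value) below 0.05, and footprint positions. The aligner and callers, with their settings, were not given in the sources used here. The deposited signal is a height on a scale that is not named, and it was compared between libraries as deposited. In each library 100% of its values were whole multiples (within 0.1 steps) of 0.00638 in mouse 1 and 0.00504 in mouse 2. The number of reads is not stated. If the scale is reads per M (mega), the steps correspond to 157 M and 198 M reads.

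The shorter list was used, with the longer (93107 and 117361 peaks) as an alternative. Peaks or footprints were shared where they overlapped by 1 bp, and pairs are mutual best overlaps. Peaks within 1000 bp of a GENCODE M21 start counted as promoter peaks. Touching runs were merged. Tiles are non-overlapping stretches of the region's length with at most 10% assembly gap. Motif letters were searched on both strands of the GRCm38 reference from RefSeq.

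Named are both promoter peaks, the 10 strongest shared sites, the 3 strongest unshared peaks and the 5 longest runs of each mouse, the footprints identical in both mice, every overlapping gene, the 3 genes most like each member, and the 2 highest and 2 lowest of each gene list by peak density. Genes and values chosen beyond this rule (Cd3d, Cd4 and Zbtb7b) were chosen after their values were seen. The members and the gene lists were chosen with earlier results of these data known. A gene of the lists is not reported here. The labels do not tie the libraries to anything below the animal, and n = 2 limits every spread given here.

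Python 3.11.15, numpy 2.4.6, pandas 2.3.3, scipy 1.17.1 and matplotlib 3.10.9 were used. Overlap, coverage and motif functions were tested on simulated data: of 20000 simulated intervals, 69.7% were planted as shared and 70.9% were recovered as overlapping, with counts equal to those of bedtools 2.31.1.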

Additional observations from a re-analysis of the deposited data

How the results depend on the processing

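Of 40 alternatives over 13 results, 30 stayed within the limits used (1.5-fold for a count, the binomial interval for a share, the spread between mice for a rank). Among peaks at or above the median of their library, the region held a mean of 28.5 per mouse. The share of mouse 2 peaks found in mouse 1 was 49.5% against the longer list of mouse 1. Dividing each signal by its library's median over all pairs turned the median log2 ratio of the region to -0.54, since that median was higher in mouse 2. With identical start and end required, 2% of mouse 1 footprints and 1.04% of mouse 2 footprints were shared. A promoter window of 2500 bp gave a mean of 9 promoter peaks over the pair, against 4. Motif matches centred in footprints of both mice averaged 27.5 per mouse, against 51.5 in all footprints. Leaving out 1 mouse gave 42 to 103 peaks, 200 to 385 footprints, 20031 to 49908 cut bases, and 0.00616% to 0.148% of tiles with as many peaks. Without mouse 2 the peaks and the cut bases fell by over 1.5-fold. The equal-number, merged-entry and cut-base alternatives were added after the data were seen. No paired analysis was possible because there is 1 group. The step of the signal sets the precision of each height, and the number of reads behind a site is unknown.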
